A study of Mus musculus with 12 samples.

Results

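The constitutive proteasome genes of mouse dendritic cells are described here, at the level of messenger RNA. They were taken as all protein-coding genes named Psma, Psmb, Psmc or Psmd followed by a number, without the cytokine-inducible catalytic subunits Psmb8, Psmb9 and Psmb10. This gave 36 genes of the 41709 in the count tables, of which 21833 were protein coding. They comprise 14 core genes (Psma1 to Psma7 for the alpha rings and Psmb1 to Psmb7 for the beta rings), 17 genes of the regulatory particle (6 Psmc ATPases and 11 Psmd subunits), 3 chaperones that help to assemble its base (Psmd5, Psmd9 and Psmd10), and the 2 tissue-restricted core genes Psma8 of testis and Psmb11 of thymus.

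The proteasome degrades proteins that carry ubiquitin chains. Its core is a barrel of outer alpha rings, which gate the entrance, and inner beta rings, of which Psmb5, Psmb6 and Psmb7 carry the cutting sites. The regulatory particle caps the barrel, and there receptors bind ubiquitin, Psmd14 removes it and the Psmc ATPases unfold the substrate and feed it into the barrel. In dendritic cells, which present antigen to T cells, the same machine produces many of the peptides that are loaded on MHC class I.

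Bone marrow cells were grown into dendritic cells (BMDCs) with GM-CSF, and MHCII-positive cells were isolated with magnetic beads for poly(A) RNA sequencing. All mice carried Itgb2, the gene of the β2 integrin chain CD18, with exon 3 flanked by loxP sites on both alleles. The CD18fl/fl mice had no Cre, and the CD18CD11c cKO mice also expressed Cre from the CD11c promoter, so that deletion depended on CD11c expression and could be incomplete in BMDCs. BMDCs of each genotype were left unstimulated or received lipopolysaccharide (LPS, 100 ng/mL for 24 h), a bacterial ligand of Toll-like receptor 4, and each of the 4 groups had 3 libraries, numbered 1 to 3. The sample labels and the paper do not say whether the libraries of a group came from separate mice, so p-values measure the spread between these libraries.

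Libraries held between 29689149 and 34037178 reads in genes. Itgb2 was lower in cKO than in CD18fl/fl libraries in both states, from 120.5 to 189.5 against 379.1 to 420.2 TMM-normalised reads-per-million (CPM) without LPS and from 89.7 to 118.6 against 167.1 to 266.5 CPM with LPS (edgeR adjusted p = 0.0887 and 0.428, or 0.00392 and 0.0201 once blocked by replicate number). Its counts cover the whole gene and not exon 3 alone. Libraries of number 3 stood apart in all 4 groups: Ccr7, the chemokine receptor of mature dendritic cells, was between 199.5 and 1238 CPM there and between 1309 and 2823 CPM in the other 8 libraries. In both cKO libraries of number 3 the Y-linked gene Ddx3y had 0 reads, against 1122 to 2502 reads in the other 10 libraries. The Y-linked Kdm5d and Eif2s3y also had 0 reads there only. By these reads alone the cKO cells of number 3 looked female, unlike those of cKO numbers 1 and 2 and of all CD18fl/fl libraries. Within number 3 sex and genotype cannot be told apart, and the block does not remove this. The summed level of 9 dendritic cell markers (13295 to 34038 CPM over all libraries) exceeded that of 6 macrophage or monocyte markers (717 to 1927 CPM) in every library. Most of the dendritic cell sum came from H2-Ab1, Cd74 and H2-Aa, which serve MHC class II presentation. Their means were 5857, 5048 and 4753 CPM in unstimulated CD18fl/fl. Since the cells were isolated by MHCII, this order does not tell dendritic cells from MHCII-positive macrophages. The macrophage list moved with genotype: it summed to 795 to 1430 CPM in CD18fl/fl and 717 to 981 CPM in cKO without LPS, and to 1508 to 1927 against 1031 to 1304 CPM with LPS, where the groups did not overlap. With the replicate number as a block, edgeR called Adgre1 lower in cKO in both states (log2 fold change -0.70, adjusted p = 0.04, and -1.05 with LPS, adjusted p = 0.0107), and without LPS also Csf1r lower (-0.88, adjusted p = 0.0121) and Fcgr1 higher (0.67, adjusted p = 0.0433). Other lists also held genes called by this blocked edgeR fit. Of the dendritic cell markers, Cd86 was higher in cKO in both states (1.11, adjusted p = 0.00437, and 1.33 with LPS, 0.00641). Without LPS, H2-Ab1 (0.86, 0.0177) and Dpp4 (0.82, 0.0321) were higher and Flt3 (-1.34, 0.0226) lower. Mast cell Cpa3 (1.18, 0.0236) and proliferation markers Ccnb1 (2.27, 0.0256) and Cdk1 (1.29, 0.0304) were higher without LPS, and B cell Ms4a1 (1.29, 0.045) with LPS. Neutrophil, B cell, mast cell and T or NK cell lists summed to at most 1113, 136, 116 and 8.1 CPM. Neutrophil markers were highest in an unstimulated CD18fl/fl library, and proliferation markers ranged from 60.0 to 222 CPM in unstimulated cKO, from 38.1 to 84.7 CPM in unstimulated CD18fl/fl and from 24.0 to 47.7 CPM in LPS-treated libraries. The part of these differences in the results was not tested. In bulk RNA, fewer cells of a type and less RNA per cell cannot be told apart.

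Length-scaled levels (transcripts-per-million, TPM) placed the core above the regulatory particle in every group. The median TPM over the 14 core genes was 273 in CD18fl/fl, 346 in CD18fl/fl with LPS, 335 in cKO and 382 in cKO with LPS, and the median over the 17 regulatory particle genes was 108, 114, 98.0 and 85.5 TPM in the same order. Subunits that occur at equal numbers in the assembled particle had unequal transcript levels: the highest and lowest core genes differed by 6.29-fold in CD18fl/fl and by 11.3-fold in cKO with LPS. The alpha subunit Psma7 led the core in 3 groups (576 TPM in CD18fl/fl, 871 TPM in cKO and 1308 TPM in cKO with LPS), and Psmb6 led it in CD18fl/fl with LPS (1024 TPM). Lowest were Psma2 in 3 groups and Psmb1 in cKO with LPS (116 TPM), which together with Psma3 have the longest exon models of the core (Psma2 3673, Psmb1 3427 and Psma3 2870 bases, against a core median of 1181.5). In the regulatory particle, lid subunits held both ends of the order, with Psmd8 at 274 TPM highest and Psmd12 at 37.4 TPM lowest in CD18fl/fl. In each group, neighbours in the order of all 36 genes differed beyond their spread (their 3 libraries did not overlap) in only 6 or 7 of 35 pairs.

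**Figure D1:**
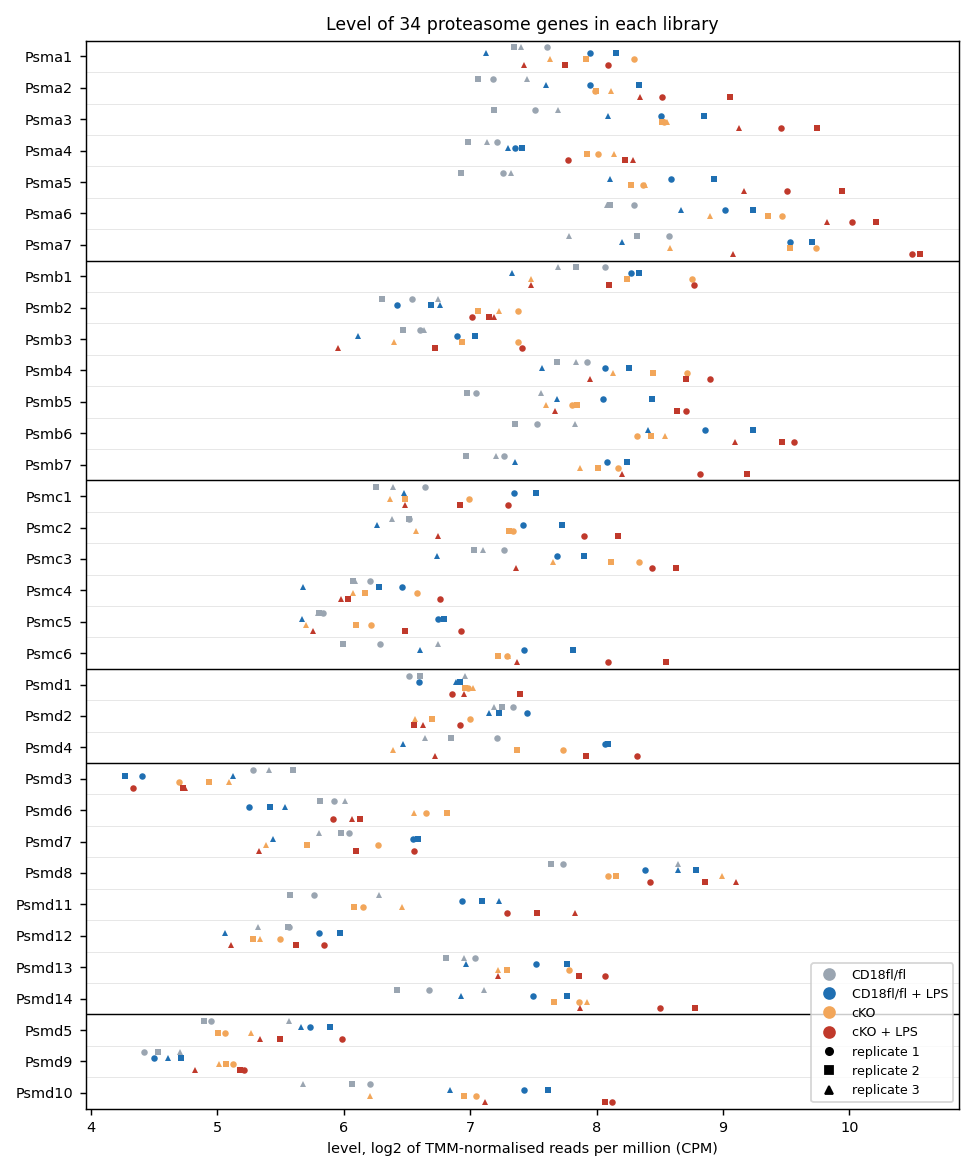
Level of 34 proteasome genes in each of the 12 libraries, as log2 of TMM-normalised reads-per-million (CPM, horizontal axis). Colours stand for the 4 groups and marker shapes for replicate numbers 1 to 3; Psma8 and Psmb11 are left out. Since CPM are not scaled to gene length, positions can be compared within a gene only. For 12 of the 14 core genes all unstimulated cKO libraries lie to the right of all unstimulated CD18fl/fl libraries.

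The tissue-restricted genes were nearly silent. Psmb11 had 0 reads in all 12 libraries, where a count of 0 allows up to 3 reads or between 0.0881 and 0.101 CPM depending on the library. Psma8, which takes the place of Psma7 in germ cells, had 58, 38 and 150 reads in CD18fl/fl, 4, 3 and 55 in CD18fl/fl with LPS, 21, 77 and 124 in cKO and 32, 3 and 42 in cKO with LPS. The library of number 3 was highest in each group, and the groups overlapped in all 4 comparisons. Psma8 passed the filter on low counts and did not pass the test in any comparison.

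The promoters of the genes that the results below turn on are shown first, from RefSeq on the mouse build GRCm38.p6, as 300 bases from 250 before to 50 after the transcription start and in the direction of transcription. Capitals mark matches, on either strand, to TGACNNNGC, the core of the antioxidant response element bound by NRF1 and NRF2 (the products of Nfe2l1 and Nfe2l2), to CCAAT, and to CGGAAG, the core of ETS factor sites. The alpha subunit Psma5, which had the largest genotype estimate of the core without LPS, holds none of these letters, the catalytic Psmb5 and Psmb6 hold the NRF1 and NRF2 core, the deubiquitinase Psmd14 and the lid subunit Psmd11 led the regulatory particle in the genotype and LPS comparisons, and Psmd2, a scaffold of the base, was the subunit lower in cKO with LPS.
Psma5, chr3:108256676-108256975, plus strand: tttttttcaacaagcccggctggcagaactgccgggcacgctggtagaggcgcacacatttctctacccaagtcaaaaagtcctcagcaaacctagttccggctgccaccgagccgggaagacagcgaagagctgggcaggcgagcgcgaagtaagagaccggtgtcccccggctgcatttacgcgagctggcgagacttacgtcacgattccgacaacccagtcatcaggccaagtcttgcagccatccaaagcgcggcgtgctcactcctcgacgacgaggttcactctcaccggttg
Psmb5, chr14:54617946-54618245, minus strand: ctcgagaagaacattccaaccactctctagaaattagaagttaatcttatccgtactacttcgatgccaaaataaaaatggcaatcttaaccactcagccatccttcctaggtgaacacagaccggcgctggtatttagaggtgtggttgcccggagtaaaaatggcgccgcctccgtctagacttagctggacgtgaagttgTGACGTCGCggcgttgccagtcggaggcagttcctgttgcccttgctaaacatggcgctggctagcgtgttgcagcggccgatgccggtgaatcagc
Psmb6, chr11:70525107-70525406, plus strand: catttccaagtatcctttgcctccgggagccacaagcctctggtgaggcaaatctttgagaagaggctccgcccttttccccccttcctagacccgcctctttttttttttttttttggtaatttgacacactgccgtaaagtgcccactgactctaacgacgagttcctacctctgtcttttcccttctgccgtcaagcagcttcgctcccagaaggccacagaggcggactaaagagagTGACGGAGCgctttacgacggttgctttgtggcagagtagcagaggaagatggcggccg
Psmd14, chr2:61711444-61711743, plus strand: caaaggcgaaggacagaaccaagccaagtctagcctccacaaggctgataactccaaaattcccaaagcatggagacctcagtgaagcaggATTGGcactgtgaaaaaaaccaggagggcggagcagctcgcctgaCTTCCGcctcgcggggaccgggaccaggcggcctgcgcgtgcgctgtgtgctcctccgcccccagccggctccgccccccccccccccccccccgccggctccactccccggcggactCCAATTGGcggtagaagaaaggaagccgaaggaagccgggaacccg
Psmd11, chr11:80428365-80428664, plus strand: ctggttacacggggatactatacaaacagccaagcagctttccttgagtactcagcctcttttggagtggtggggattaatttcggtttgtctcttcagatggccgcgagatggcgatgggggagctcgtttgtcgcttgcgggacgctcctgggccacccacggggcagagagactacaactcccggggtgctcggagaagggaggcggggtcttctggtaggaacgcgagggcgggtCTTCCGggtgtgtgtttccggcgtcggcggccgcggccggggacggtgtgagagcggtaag
Psmd2, chr16:20651402-20651701, plus strand: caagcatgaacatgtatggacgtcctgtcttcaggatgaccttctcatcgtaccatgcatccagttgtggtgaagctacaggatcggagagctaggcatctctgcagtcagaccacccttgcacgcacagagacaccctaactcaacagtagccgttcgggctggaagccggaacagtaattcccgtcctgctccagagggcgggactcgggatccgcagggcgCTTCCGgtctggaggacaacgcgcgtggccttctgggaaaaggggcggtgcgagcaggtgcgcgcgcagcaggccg

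A promoter was held by the table for 29 of the 36 genes and for 27025 genes in all. CGGAAG occurred in 18 of the 29 (62.1%), against 18.8% of all promoters and 34.2% of the 10649 promoters whose gene was tested in a comparison. It was found in 4 of 11 core promoters (36.4%) and in 14 of the other 18 (77.8%). CCAAT occurred in 12 of the 29 (41.4%), close to the 41.1% of all promoters. TGACNNNGC occurred in 5 (17.2%; Psmb5, Psmb6, Psmc6, Psmd9 and Psmd12), against 14% of all promoters and 16.9% of those of tested genes. The table held 32851 windows, so some genes had more than 1, and a gene was counted if any of its windows held a match. For Psma6, CCAAT and CGGAAG lay in different windows. The shares are thus of genes, and these are matches of letters, without a test.

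To set core against regulatory particle within each library, the mean log2 CPM of the 17 regulatory particle genes was subtracted from that of the 14 core genes. The difference was 1.01, 0.91 and 0.94 in CD18fl/fl (mean 0.95 ± 0.05 SD, n = 3), 1.20, 1.29 and 1.19 in CD18fl/fl with LPS (1.23 ± 0.06), 1.44, 1.45 and 1.34 in cKO (1.41 ± 0.06) and 1.59, 1.63 and 1.54 in cKO with LPS (1.58 ± 0.04). The 4 groups followed each other without overlap, libraries of number 3 included. This held for means only. As a difference of medians, LPS-treated and unstimulated libraries overlapped within each genotype, while cKO lay above CD18fl/fl in both states. Both parts were higher in cKO than in CD18fl/fl on the mean log2 CPM scale, the core from 7.39 ± 0.12 to 8.17 ± 0.19 and the regulatory particle from 6.44 ± 0.09 to 6.75 ± 0.14 without LPS. With LPS the core was at 8.02 ± 0.39 and 8.60 ± 0.35 and the regulatory particle at 6.79 ± 0.34 and 7.02 ± 0.31 in CD18fl/fl and cKO, and here the libraries of the genotypes overlapped. Within the core, the alpha genes exceeded the beta genes by 0.38, 0.34 and 0.20 in CD18fl/fl, by 0.61, 0.63 and 0.55 in CD18fl/fl with LPS, by 0.55, 0.65 and 0.72 in cKO and by 0.67, 1.07 and 1.10 in cKO with LPS. Because long and short genes moved apart between libraries, the core to regulatory particle difference was also computed after a smooth dependence on exon length had been taken out of each library, an alternative chosen after seeing the data. It was then 1.17, 1.12 and 1.06 in CD18fl/fl, 1.30, 1.33 and 1.30 in CD18fl/fl with LPS, 1.36, 1.36 and 1.28 in cKO and 1.44, 1.43 and 1.41 in cKO with LPS. Unstimulated cKO remained above unstimulated CD18fl/fl and LPS-treated cKO above LPS-treated CD18fl/fl in all 3 libraries, by less than before, while unstimulated cKO overlapped LPS-treated CD18fl/fl.

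**Figure D2:**
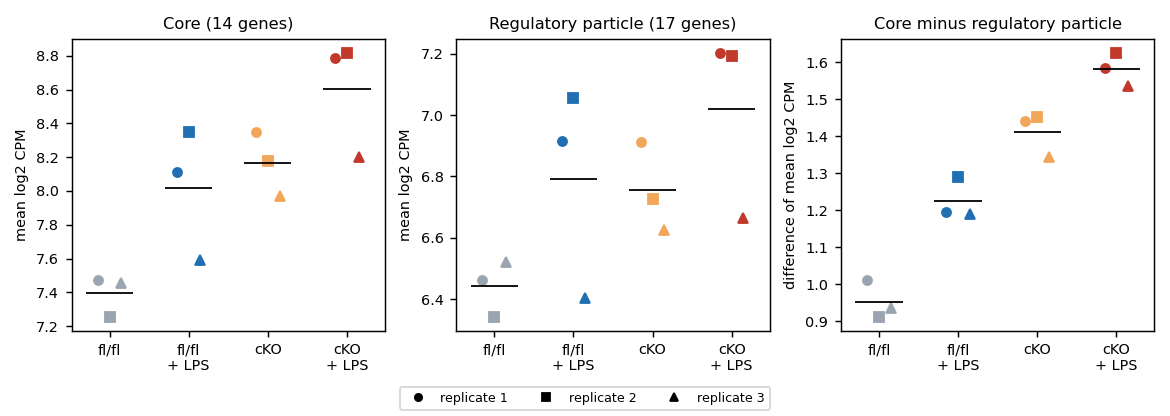
Mean log2 CPM of the core (14 genes), of the regulatory particle (17 genes), and their difference, for the 12 libraries by group. Points are libraries, with marker shapes for replicate numbers 1 to 3. The difference of these means separates the 4 groups, from 0.91 to 1.01 in CD18fl/fl up to 1.54 to 1.63 in cKO with LPS. A difference of medians does not separate LPS-treated from unstimulated libraries.

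The first question was whether loss of CD18 went with another proteasome gene level in unstimulated BMDCs. Most subunits were higher in cKO, and the core more so than the regulatory particle. In the edgeR quasi-likelihood test of cKO against CD18fl/fl over 12876 genes, with adjustment over all of them, no gene passed in either direction (0% of all genes and 0 of the 35 proteasome genes tested, lowest adjusted p of a proteasome gene 0.0866), while 20 of the 35 had an unadjusted p under 0.05, all higher in cKO (10.8% of all genes higher and 5.93% lower). Because libraries of the same number deviated together, those of number 3 most, the same test was run with the replicate number as a block. It called 21 of the 35 higher in cKO and 0 lower, against 12.1% of all genes higher and 8.16% lower. DESeq2 without the block called 11 higher and 0 lower (5.5% and 0.527% of all genes). Without the libraries of number 3 the blocked test called 26 higher, all 21 among them, and 1 lower, with 14.9% of all genes called higher and 11.8% lower. Without number 1 or number 2, which leaves number 3 as 1 of only 2 pairs, it called 12 and 6 higher (6.4% and 2.97% of all genes) and 0 lower in both (1.31% and 0.501%).

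The 21 genes comprised 12 of the 14 core genes, namely all 7 of the alpha ring and 5 of 7 of the beta ring, but only 7 of the 17 regulatory particle genes. These were 3 of the 6 ATPases and 4 of the 8 lid subunits, with none of Psmd1, Psmd2 and Psmd4 of the base, and 2 of the 3 base chaperones were called as well. The median log2 fold change without the block was 0.88 in the core, 1.11 for the alpha and 0.69 for the beta ring, 0.40 in the regulatory particle and -0.05 over all genes tested. When libraries were scaled to their read totals alone, these medians were 0.49 in the core and -0.012 in the regulatory particle beside -0.44 over all genes, so that the sign of the regulatory particle median depended on the scaling and its order against the core and against all genes did not. Under that scaling the blocked test called 13 proteasome genes higher and 2 lower, against 5.44% and 30.1% of all genes. Every cKO library lay above every CD18fl/fl library for 20 of the 35 (12 in the core) and below for 2, against 11.7% and 13.1% of all genes. By replicate number, the median core difference was 0.80, 0.94 and 0.67 and that of the regulatory particle 0.39, 0.48 and 0.07 on the log2 scale.

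Psma5, Psmd14 and Psma6 had the smallest adjusted p values of the blocked test. Psma5 was at 153, 121 and 160.3 CPM in CD18fl/fl and at 329.8, 309 and 335 CPM in cKO. All cKO libraries lay above all CD18fl/fl libraries, and the log2 fold change was 1.22 ± 0.19 (SE, adjusted p = 0.0866 by edgeR) and 1.23 ± 0.14 with the block (adjusted p = 0.00318). Psma6, also of the alpha ring, was at 314, 275 and 271 CPM in CD18fl/fl and at 709.7, 656 and 476 CPM in cKO. The groups again did not overlap, but the cKO library of number 3 lay below the others. Its log2 fold change was 1.15 ± 0.22 (edgeR adjusted p = 0.1), and 1.14 ± 0.15 with the block (adjusted p = 0.00374). Psmd14, the lid enzyme that cuts ubiquitin chains off the substrate, was at 102, 85.8 and 138 CPM in CD18fl/fl and at 233, 203 and 244 CPM in cKO, without overlap. The log2 fold change was 1.12 ± 0.23 (edgeR adjusted p = 0.102), and 1.14 ± 0.14 with the block (adjusted p = 0.00366).

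The catalytic subunits differed by less than these alpha subunits. Psmb5, with chymotrypsin-like activity, was at 132, 126 and 188 CPM in CD18fl/fl and at 223, 230.1 and 194 CPM in cKO. The groups did not overlap, but the CD18fl/fl library of number 3 nearly reached the cKO library of the same number, and the log2 fold change with the block was 0.61 ± 0.18 (edgeR adjusted p = 0.0472). Psmb6, with caspase-like activity, was at 185, 164 and 227 CPM in CD18fl/fl and at 319.7, 346 and 373 CPM in cKO, a blocked log2 fold change of 0.92 ± 0.14 (edgeR adjusted p = 0.00634). Psmb7, with trypsin-like activity, was at 154, 125 and 147 CPM in CD18fl/fl and at 287, 258 and 234 CPM in cKO, 0.93 ± 0.14 with the block (edgeR adjusted p = 0.00592). Neither overlapped between genotypes.

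The ubiquitin receptor Psmd4 was at 148, 115 and 100.2 CPM in CD18fl/fl and at 213, 166 and 83.7 CPM in cKO. The groups overlapped, with the library of number 3 higher in CD18fl/fl, and the log2 fold change of 0.32 ± 0.18 with the block did not pass (edgeR adjusted p = 0.239). Psmd2, the base scaffold that binds ubiquitin-like domains, was lower in all cKO libraries, at 162, 152 and 146 CPM in CD18fl/fl and at 128, 104 and 94.7 CPM in cKO, a blocked log2 fold change of -0.45 ± 0.13 that missed the threshold (edgeR adjusted p = 0.0502).

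**Figure D3:**
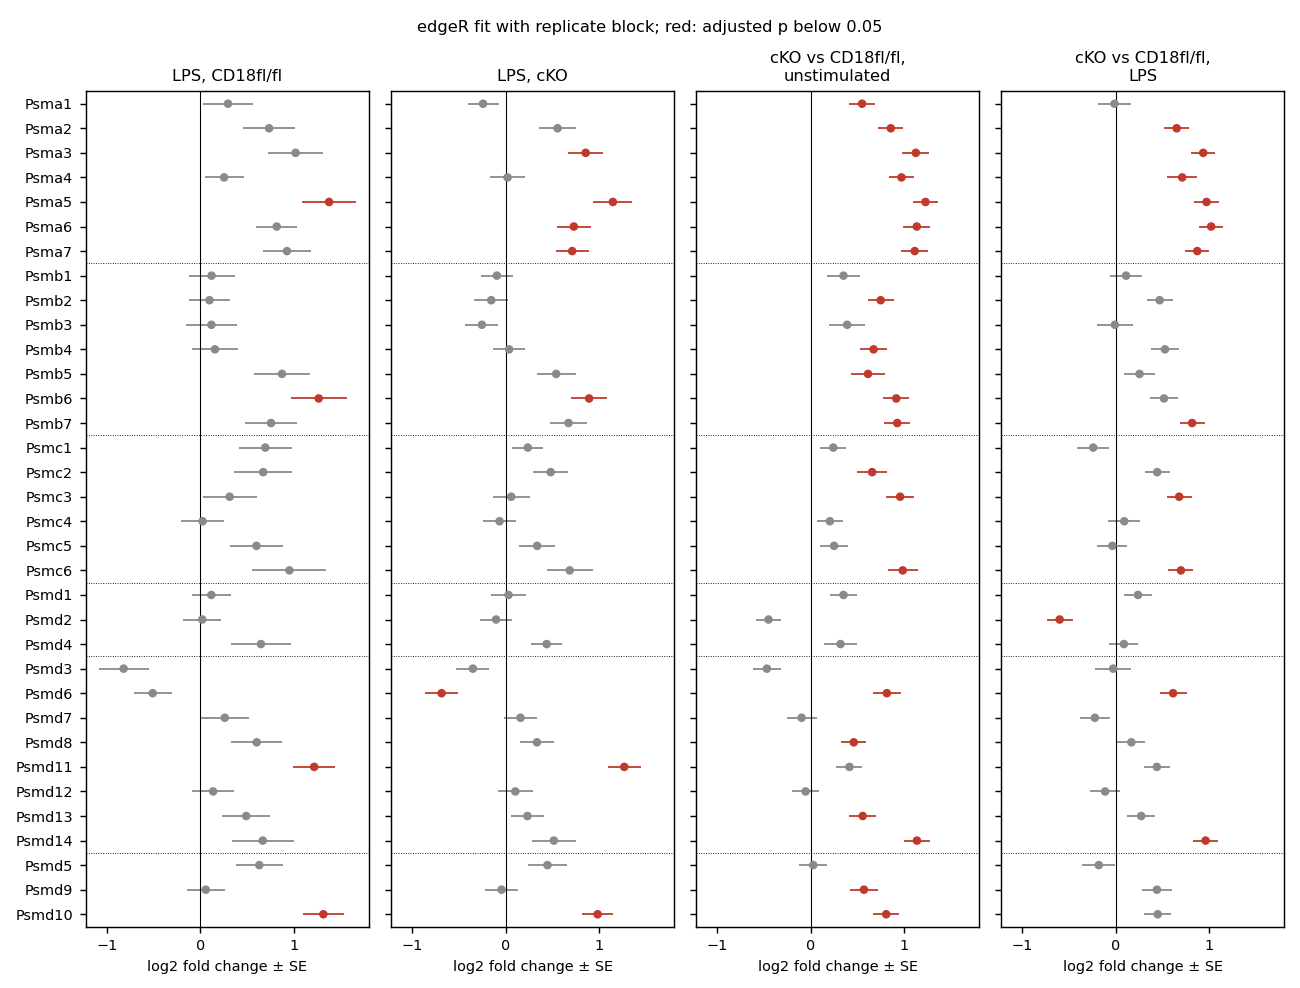
Log2 fold changes of 34 proteasome genes (points, with bars of 1 SE) in the 4 comparisons of groups, from the edgeR fit with the replicate number as a block. Red marks an adjusted p below 0.05. Red points fill the core rows in the comparison of unstimulated genotypes (21 genes higher) and are few in the comparison of LPS with no stimulation in CD18fl/fl (4 genes higher).

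In the presence of LPS, the genotype comparison called fewer genes, mostly of the alpha ring, and the drop in number was not itself shown by the interaction test given further on. Without the block edgeR called 0 of the 35 and 0% of all genes in either direction, 6 having an unadjusted p under 0.05 with cKO higher and 1 with cKO lower (6.19% and 3.55% of all genes), and DESeq2 called 0 of the 35 (1.22% and 0.078% of all genes). With the block 11 were called higher in cKO and 1 lower, against 6.98% and 3.16% of all genes. The 11 were Psma2 to Psma7, Psmb7, the ATPases Psmc3 and Psmc6 and the lid subunits Psmd6 and Psmd14, and all 11 belonged to the 21 called without LPS. The comparisons use different libraries, but LPS-treated and unstimulated libraries of the same genotype and number deviated together (r between 0.265 and 0.565), so the overlap is not between separate replicates. Without the libraries of number 3, 9 of the 11 and the same 1 lower gene were called (7.13% and 4.17% of all genes), and without number 1 or number 2 it was 0 and 1 higher (0.0234% and 1.58% of all genes) and 0 lower (0% and 0.194%). The median log2 fold change was 0.60 in the core, 0.87 for the alpha and 0.46 for the beta ring, 0.19 in the regulatory particle and -0.11 over all genes. Single libraries moved the regulatory particle median: it was 0.086 and 0.30 without the CD18fl/fl libraries of number 3 and number 2, and 0.092 without cKO number 1. Scaled to read totals alone, the median was 0.35 in the core and -0.048 in the regulatory particle beside -0.37 over all genes. Groups did not overlap for 10 genes with cKO higher and 1 with cKO lower (9.51% and 8.09% of all genes).

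Psma6 was at 517, 604 and 406 CPM in LPS-treated CD18fl/fl and at 1039, 1187 and 908 CPM in LPS-treated cKO. The groups did not overlap, with number 3 lowest in both, and the log2 fold change was 1.01 ± 0.26 (edgeR adjusted p = 0.353), and 1.02 ± 0.13 with the block (adjusted p = 0.00814). Psma5 was at 386, 487 and 275 CPM in CD18fl/fl and at 729, 984 and 574 CPM in cKO, also without overlap, and its blocked log2 fold change was 0.97 ± 0.13 (edgeR adjusted p = 0.0091). Psmd14 was at 180.2, 218 and 122 CPM in CD18fl/fl and at 362, 439.9 and 234 CPM in cKO, a blocked log2 fold change of 0.96 ± 0.13 (edgeR adjusted p = 0.00961). For each of these genes every cKO library lay above every CD18fl/fl library.

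The 1 gene lower in LPS-treated cKO was Psmd2. It was at 175, 149.9 and 142 CPM in CD18fl/fl and at 121, 94.3 and 98.6 CPM in cKO, without overlap. The log2 fold change was -0.60 ± 0.22 (edgeR adjusted p = 0.48), and -0.60 ± 0.14 with the block (adjusted p = 0.0392).

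Among the catalytic subunits only Psmb7 passed with LPS, at 271, 303 and 164 CPM in CD18fl/fl against 452, 584 and 295 CPM in cKO. The cKO library of number 3 lay below the highest CD18fl/fl library, so that the groups overlapped, and the blocked log2 fold change was 0.82 ± 0.13 (edgeR adjusted p = 0.0149). Psmb5 (266, 347 and 206 CPM in CD18fl/fl, 417, 399 and 204 CPM in cKO) overlapped between genotypes and had a blocked log2 fold change of 0.25 ± 0.16 (edgeR adjusted p = 0.358). Psmb6 (464, 603 and 339 CPM in CD18fl/fl, 755, 708 and 548 CPM in cKO) also overlapped, at 0.52 ± 0.15 (edgeR adjusted p = 0.0749). Psmd4, at 267, 273 and 88.4 CPM in CD18fl/fl and 319, 241 and 106 CPM in cKO, gave 0.09 ± 0.15 (edgeR adjusted p = 0.761), with number 3 far below the other libraries in both groups.

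**Figure D4:**
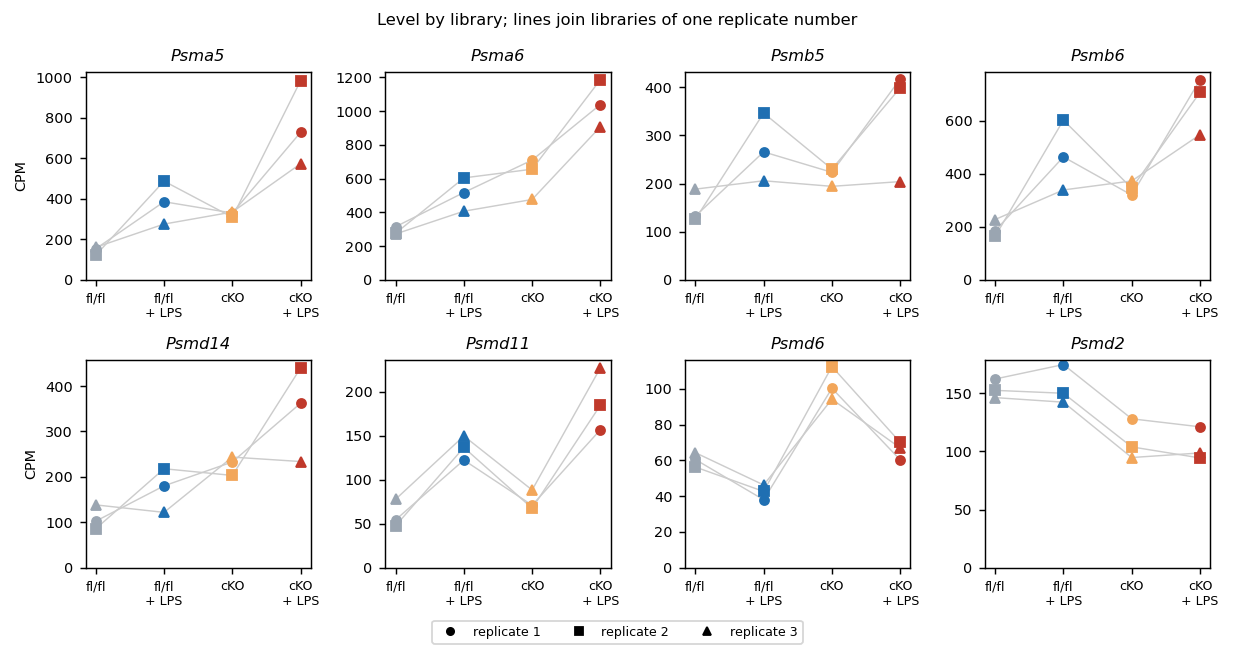
TMM-normalised reads-per-million (CPM, vertical axes from 0) of Psma5, Psma6, Psmb5, Psmb6, Psmd14, Psmd11, Psmd6 and Psmd2 in the 12 libraries by group. Lines join the libraries of 1 replicate number. Psma5 ranges from 121 CPM in CD18fl/fl to 984 CPM in cKO with LPS, and within each genotype all LPS-treated libraries lie below the unstimulated ones for Psmd6 and above them for Psmd11. All cKO libraries of Psmd2 lie below all CD18fl/fl libraries.

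The next question was which proteasome genes followed LPS in CD18fl/fl BMDCs. Few passed the test, although most estimates were above 0. Without the block 1 of the 35, Psma5, was called higher and 0 lower (2.06% and 1.83% of all genes), with 11 higher and 2 lower at an unadjusted p under 0.05 (12.4% and 11.4%). With the block Psma5, Psmb6, Psmd10 and Psmd11 were called higher and 0 lower (6.33% and 6.43% of all genes), and DESeq2 called 5 higher and 0 lower (6.91% and 5.88%). With the length offset described below and the block 5 were higher and 0 lower (7.41% and 6.93%). The 4 genes called higher with the block made up 11.4% of the 35. Median log2 fold changes were 0.78 in the core, 0.83 for the alpha and 0.18 for the beta ring, 0.52 in the regulatory particle (0.34 without the LPS-treated library of number 2) and -0.02 over all genes. The count rested on the libraries of number 3: without them the blocked test called 22 higher and 3 lower, against 24% and 25.3% of all genes, and without number 1 or number 2 it called 0 (3.82% and 2.3% of all genes higher, 3.37% and 1.97% lower). Leaving out the LPS-treated library of number 3 alone gave 16 higher and 2 lower without the block, against 12.2% and 12.5% of all genes. By number, the median core difference was 0.74, 1.20 and 0.15, that of the regulatory particle 0.51, 0.96 and -0.14, and 31, 31 and 15 of the 35 genes were above 0.

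Psma5 was at 153, 121 and 160.3 CPM without and at 386, 487 and 275 CPM with LPS in CD18fl/fl. The groups did not overlap, number 3 being lowest of the LPS-treated libraries, and the log2 fold change was 1.41 ± 0.29 (edgeR adjusted p = 0.0493; 0.033 with the block). Without the block this call was lost when any single library other than the LPS-treated number 3 was left out, at log2 fold changes from 1.20 to 1.48. Psmd11, a lid scaffold, went from 54.3, 47.5 and 77.7 CPM to 122, 137 and 149.7 CPM, without overlap and with number 3 highest in both groups. Its log2 fold change was 1.19 ± 0.27 (edgeR adjusted p = 0.0587), and 1.22 ± 0.22 with the block (adjusted p = 0.0238). Psmd10, the base chaperone also known as gankyrin, went from 73.9, 66.9 and 51.2 CPM to 172, 196 and 115 CPM, again without overlap, a blocked log2 fold change of 1.32 ± 0.22 (edgeR adjusted p = 0.0175).

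Of the catalytic subunits Psmb6 had the largest LPS estimate in CD18fl/fl, from 185, 164 and 227 to 464, 603 and 339 CPM, a blocked log2 fold change of 1.27 ± 0.30 (edgeR adjusted p = 0.0441), and its groups did not overlap. The blocked estimates of Psmb5 (0.87 ± 0.30, edgeR adjusted p = 0.107) and Psmb7 (0.76 ± 0.28, adjusted p = 0.119) did not pass, nor did that of Psmd14 (0.67 ± 0.33, adjusted p = 0.216) or Psmd4 (0.65 ± 0.32, adjusted p = 0.214).

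In cKO BMDCs, the genes called with LPS once the block was used comprised 4 of the alpha ring, 1 of the beta ring, 2 lid subunits and 1 base chaperone. Without the block edgeR called 1 higher, Psmd11, and 0 lower (2.23% and 1.76% of all genes), 8 and 1 having an unadjusted p under 0.05 (10.7% and 10.5%). With the block Psma3, Psma5, Psma6, Psma7, Psmb6, Psmd10 and Psmd11 were called higher and Psmd6 lower (10.2% and 9.93% of all genes), and DESeq2 called 4 higher and 0 lower (5.45% and 5.3%). Without the libraries of number 3 all 8 were called, with 14 higher and 1 lower in all (15.7% and 15.8% of all genes), and without number 1 or number 2 the blocked test called 1 higher each (3.54% and 5.03% of all genes) and 0 lower (2.92% and 5.52%). The median log2 fold change was 0.59 in the core, 0.72 for the alpha and 0.06 for the beta ring, and 0.25 in the regulatory particle. The last value rested on single libraries, being 0.42, 0.18 and 0.13 without the unstimulated numbers 1, 2 and 3 and 0.085 and 0.40 without the LPS-treated numbers 1 and 3.

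Psmd11 went from 71.0, 67.6 and 88.3 to 157, 185 and 227 CPM with LPS in cKO. Each LPS-treated library lay above each unstimulated one, and the log2 fold change was 1.29 ± 0.26 (edgeR adjusted p = 0.0459; 0.00468 with the block). The call without the block was lost when any single library other than the LPS-treated number 3 was left out (log2 fold changes from 1.22 to 1.42), and leaving out that library gave 4 genes higher and 0 lower (4.12% and 3.68% of all genes). Psmd10 went from 132, 124 and 73.9 to 279, 268 and 139 CPM, without overlap although number 3 was low in both groups, a blocked log2 fold change of 0.99 ± 0.17 (edgeR adjusted p = 0.0091). Psma5 went from 329.8, 309 and 335 to 729, 984 and 574 CPM, also without overlap, a blocked log2 fold change of 1.15 ± 0.21 (edgeR adjusted p = 0.0114). In the other direction Psmd6, a lid subunit, went from 100.4, 113 and 94.3 to 60.3, 70.1 and 67.0 CPM. The groups did not overlap, and the log2 fold change was -0.68 ± 0.22 (edgeR adjusted p = 0.132), and -0.68 ± 0.17 with the block (adjusted p = 0.0355).

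Psmd6 was thus higher in unstimulated cKO than CD18fl/fl (60.5, 56.3 and 64.4 CPM in CD18fl/fl, blocked log2 fold change 0.82 ± 0.15, edgeR adjusted p = 0.0107) and lower with LPS in cKO. In CD18fl/fl it stood at 38.0, 42.7 and 46.3 CPM with LPS, below all unstimulated libraries, with a blocked log2 fold change of -0.51 ± 0.21 that did not pass (edgeR adjusted p = 0.147). The lid subunit Psmd3, singled out after its values were seen, was the 1 gene called lower in unstimulated cKO without number 3, at 39.0, 48.4 and 42.5 CPM in CD18fl/fl and at 25.9, 30.5 and 34.0 CPM in cKO, where all cKO libraries lay below.

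Whether the genotype difference itself depended on LPS was tested as an interaction over all 12 libraries. None of the 35 genes passed in edgeR with or without the block, with the length correction or in DESeq2, and 0 of them had an unadjusted p under 0.05 in edgeR without the block. Over all 13752 genes edgeR called 0% in either direction, with 48 and 49 genes at an unadjusted p under 0.05, and DESeq2 called 1. The median interaction estimate was -0.18 in the core and -0.12 in the regulatory particle (log2), with 14 of 14 and 14 of 17 below 0. Over all genes it was 0.021, with 52.2% of genes above 0. The subunits share the same 12 libraries, so these counts are not independent. Leaving out single libraries moved the core median between -0.44 and 0.025 and that of the regulatory particle between -0.39 and 0.071, so the sign rested on single libraries. The smaller counts with LPS are therefore not shown to differ from those without.

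Exon length moved with the genotype difference, and the core is made of shorter transcripts (median exon length 1181.5 bases, against 2060 in the regulatory particle). Across 34 proteasome genes, which share the same 6 libraries, the rank correlation of exon length with the log2 fold change of unstimulated cKO against CD18fl/fl was -0.38, and the 15 genes under 1500 bases had a median of 0.82 against 0.43 for the 19 longer ones. With the length dependence of each library as an offset and with the replicate block, edgeR called 9 of the 35 higher and 1 lower, Psmd3, against 8.19% and 4.95% of all genes. The 9 included 6 of the 7 alpha genes and 0 of the beta genes. The core median was then 0.42 and that of the regulatory particle 0.32. Psma5 (0.77 ± 0.13, edgeR adjusted p = 0.0128), Psma6 (0.60, adjusted p = 0.0281) and Psmd14 (0.78, adjusted p = 0.0138) still passed, while Psmb5 (-0.05, adjusted p = 0.868), Psmb6 (0.20, adjusted p = 0.342) and Psmb7 (0.39, adjusted p = 0.0844) did not. In LPS-treated cells 7 of the 35 were called higher with this offset and 0 lower (5.5% and 2.39% of all genes): Psma2, Psma3, Psma5, Psma6, Psmc3, Psmc6 and Psmd14, all of which were also called in unstimulated cells. Among genes of like length (1300 to 3700 bases, a window chosen after seeing the data), the 5 core genes had a median of 0.97 and the 17 regulatory particle genes one of 0.40 in unstimulated cells, and 0.77 and 0.32 with the offset and block. These 5 were Psma2, Psma3, Psma4, Psma5 and Psmb1. The contrast is thus mostly of alpha ring genes and does not cover the short beta genes. Whether beta ring genes passed between genotypes depended on the length correction, and Psma2, Psma3, Psma5, Psma6, Psmc3, Psmc6 and Psmd14 passed with and without it in both states once the block was used.

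**Figure D5:**
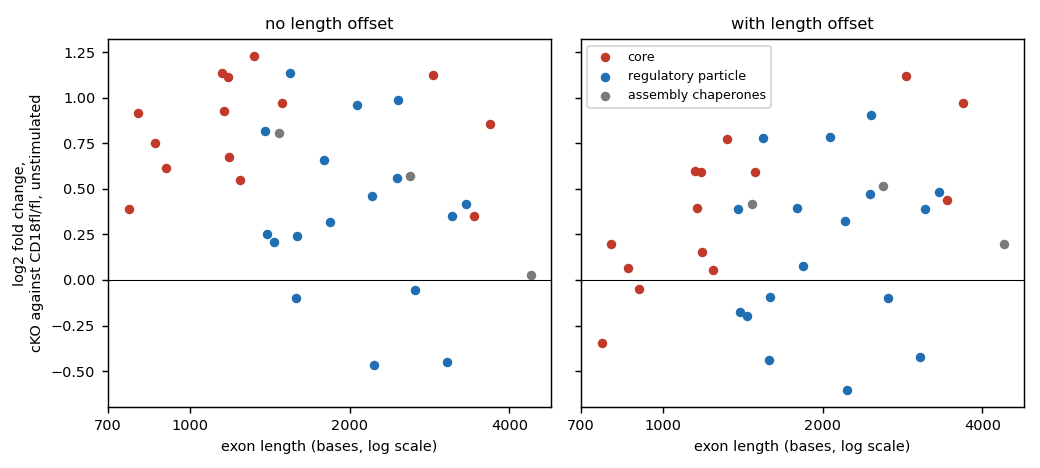
Log2 fold change of 34 proteasome genes in unstimulated cKO against CD18fl/fl (vertical axis) by exon length in bases (log axis), before and after the length offset, with core and other genes in different colours. Both fits use the replicate block. Before the offset genes under 1500 bases have a median of 0.81, against 0.42 for longer ones, and after it the relation with length is turned (rank correlation 0.22).

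In cells exposed to inflammatory signals, Psmb8, Psmb9 and Psmb10 replace Psmb5, Psmb6 and Psmb7 in newly made core particles. The inducible share of each pair was computed from TPM. Psmb8 made up 65.5%, 62.7% and 50.7% of Psmb8 plus Psmb5 in CD18fl/fl, 71.9%, 68.2% and 56.5% with LPS, 59.9%, 51.2% and 54.5% in cKO and 61.3%, 57.1% and 64.4% in cKO with LPS, with overlap between all groups. For Psmb9 against Psmb6 the shares were 31.6%, 30.3% and 17.3% in CD18fl/fl, 39.8%, 36.0% and 24.0% with LPS, 31.1%, 25.5% and 16.4% in cKO and 32.8%, 35.0% and 25.9% in cKO with LPS, lowest in number 3 in every group. For Psmb10 against Psmb7 they were 39.2%, 42.4% and 28.8% in CD18fl/fl, 37.7%, 35.6% and 33.8% with LPS, 27.4%, 27.3% and 20.1% in cKO and 26.1%, 20.5% and 24.0% in cKO with LPS. The Psmb10 share was lower in all cKO than in all CD18fl/fl libraries in both states. In TPM, Psmb10 itself was at 184, 180.1 and 113 in CD18fl/fl and at 139, 127 and 87.5 in cKO, and at 253.9, 227 and 151 against 182, 163 and 120.05 with LPS, lower in cKO for each number, and Psmb7 was higher in cKO for each number. On the CPM scale of the fits, Psmb10 had a blocked log2 fold change of 0.13 without LPS (edgeR adjusted p = 0.526) and -0.02 with LPS (adjusted p = 0.938), and with the length offset -0.33 (adjusted p = 0.129) and -0.34 (adjusted p = 0.2).

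With LPS the inducible genes and the activator genes Psme1 and Psme2, whose products open the core without ATP, had larger estimates than most constitutive genes. In CD18fl/fl the blocked log2 fold change was 1.24 for Psmb8 (edgeR adjusted p = 0.0494), 1.77 for Psmb9 (0.0145), 0.71 for Psmb10 (0.076), 1.21 for Psme1 (0.0261) and 1.90 for Psme2 (0.00772). In cKO it was 0.88 for Psmb8 (edgeR adjusted p = 0.0155), 1.43 for Psmb9 (0.00339), 0.59 for Psmb10 (0.0481), 0.99 for Psme1 (0.0114) and 1.59 for Psme2 (0.00385). Between unstimulated genotypes Psmb9 (0.75, edgeR adjusted p = 0.00924), Psme1 (0.47, 0.0487) and Psme2 (0.83, 0.00772) were called higher in cKO with the block, and Psmb8 (0.34, 0.109) was not. None of them passed without the block (edgeR adjusted p = 0.315, 0.579 and 0.401), and with the length offset and block Psmb9 passed (0.50, adjusted p = 0.0417) while Psme1 (-0.02, 0.924) and Psme2 (0.21, 0.309) did not, the sign of Psme1 turning. With LPS no gene of the inducible and activator lists was called between genotypes.

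Other genes around the proteasome were counted with the block, none being called without it, and the shares of all genes called in these fits are those given above (12.1% higher and 8.16% lower between unstimulated genotypes, 6.98% and 3.16% with LPS, and for LPS 6.33% and 6.43% in CD18fl/fl and 10.2% and 9.93% in cKO). Of the 5 core assembly chaperones, 3 were called higher in unstimulated cKO, 2 in LPS-treated cKO and 1 with LPS in each genotype, and 0 were lower. With the length offset 1 of the 3, Pomp, passed in unstimulated cKO, while Psmg1 (0.16, edgeR adjusted p = 0.551) and Psmg4 (0.45, adjusted p = 0.105) did not. Pomp, which matures the beta ring, was at 159, 118 and 117 CPM in CD18fl/fl and at 285, 315 and 259 CPM in cKO, without overlap, a blocked log2 fold change of 1.19 ± 0.16 (edgeR adjusted p = 0.00405). Of 7 other proteasome-bound proteins in the tables, 1 was called higher in unstimulated cKO and 1 with LPS in cKO. Of 9 ubiquitin genes and shuttle factors, 1 was higher and 1 lower in unstimulated cKO, 2 were higher in LPS-treated cKO and 1 was higher with LPS in cKO, so that the list was near the background in unstimulated cKO. Of 6 regulators of proteasome genes, 0 were called higher in any comparison and 2 were called lower in unstimulated cKO. These were Nfe2l1, which encodes NRF1, the activator of proteasome genes when proteasomes fail, and Ddi2, the protease that cuts NRF1 into its active form. Nfe2l1 was at 104, 119 and 136 CPM in CD18fl/fl and at 73.6, 50.1 and 71.4 CPM in cKO, without overlap, a blocked log2 fold change of -0.84 ± 0.17 (edgeR adjusted p = 0.016), and Ddi2 had -0.58 (adjusted p = 0.0407). With the length offset Nfe2l1 passed (-0.64, edgeR adjusted p = 0.0433) and Ddi2 did not (-0.25, adjusted p = 0.286). Between genotypes the offset also called genes that had not passed with the block alone. The proteasome-bound Adrm1 was lower in cKO in both states (-0.80, edgeR adjusted p = 0.0149, and -0.80 with LPS, 0.0218). The regulator Akirin2 was lower in cKO with LPS (-0.86, edgeR adjusted p = 0.0223). In these fits 4.95% of all genes were lower without LPS and 2.39% with LPS.

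Reads of nearly all proteasome genes were unique to them (99.67% or more, except Psmd1 with 93.4% and Psmb7 with 88.7%). The 7 genes whose position overlaps another gene with reads (Psma2, Psma3, Psma5, Psmb7, Psmc3, Psmd1 and Psmd13) may hold reads of that neighbour. The library kit does not mark strand, and all of them but Psma2 had a neighbour on the opposite strand. Nek6, the neighbour of Psmb7, had up to 6603 reads, while Psmb7 itself had 4986 to 13007. Neighbours of the others had at most 854 reads.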

How the data were processed

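RNA of MHCII-positive BMDCs was sequenced in 12 libraries (poly(A) selection, single-end reads, kit without strand information). The authors mapped the reads and counted them per gene with CLC Genomics Workbench on default settings, and deposited total gene counts and TPM for each library. The build of the gene coordinates was GRCm39 per the paper, and all 36 proteasome genes lay on GRCm39 genes of the same name, while the GEO labels name GRCm38. TPM were used as deposited, and only for levels between genes.

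From the deposited counts, edgeR 4.0.16 (R 4.3.3, limma 3.58.1) fitted the quasi-likelihood model to the 6 libraries of each comparison, and to all 12 for the interaction, with TMM scaling, filterByExpr (minimum count 10) and Benjamini-Hochberg adjustment over all genes tested at a threshold of 0.05. Standard errors were taken as the absolute log2 fold change over the root of the F statistic. CPM were TMM-normalised over the 12 libraries, and log2 CPM had a prior count of 2. DESeq2 1.42.0 was an alternative. Tables were handled with Python 3.11.15, pandas 2.3.3 and numpy 2.4.6, and plots drawn with matplotlib 3.10.9. The scripts were tested on simulated data.

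Replicate numbers are those of the sample titles. Same-numbered libraries deviated together in every comparison (r of deviations from group means between 0.265 and 0.716, all same-numbered pairs over 0.1), so blocked values are given beside the others. Libraries of numbers 1 and 2 also deviated together (r between 0.154 and 0.334). For LPS in CD18fl/fl such a pair (0.278) exceeded the pair of number 2 (0.265). Number 3 against the others gave r between -0.571 and -0.321, so the block mostly sets number 3 apart. What a number stands for is not given in the sources used here. The length offset was a lowess curve (span 0.3) of each library's deviation on log exon length, for which 929 genes with an exon length of 0 were left out. That offset in core and regulatory particle levels, the fits of all 12 libraries with the block and those without 1 replicate number were chosen after seeing the data. No 2 libraries agreed within sampling noise (smallest chi-square per degree of freedom 36.1 over 66 pairs). Floors cover counting error only.

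The proteasome genes and all lists were chosen with earlier results of these data known. Values in every library were given for the catalytic Psmb5, Psmb6 and Psmb7, for Psmd4, Psmd14, Psma8 and Psmb11, and for up to 3 genes per comparison and direction with the smallest adjusted p among those called with the block. Promoters were read from the RefSeq table (GRCm38.p6) and matched to 3 motifs on both strands. A planned comparison of protein sequences was not made.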

Additional observations from a re-analysis of the deposited data

How the results depend on the processing

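Each comparison was refitted under other scalings, filters, tools and sets of libraries, and the cause of a changed count was not tested. Counts are of the 35 proteasome genes tested, each followed by the share of all genes called in the same fit and direction. For LPS in CD18fl/fl (1 higher, 0 lower) the number called higher was 4 with the replicate block (6.33%), 5 with DESeq2 (6.91%), 10 with DESeq2 and the block (11.6%), 5 with all 12 libraries in 1 fit (4.13%) and 10 with that fit and the block (12.1%), 0 with RLE size factors (2.13%), 0 with library size scaling (1.12%) and 3 with that and the block (3.74%), 2 without a filter on low counts (2%), 3 with the length offset (2.57%) and 5 with that and the block (7.41%). Lower were 1 with DESeq2 and the block (11.1%) and 2 with 12 libraries and the block (12.3%). For LPS in cKO (1 higher, 0 lower) it was 7 with the block (10.2%), 4 with DESeq2 (5.45%), 10 with DESeq2 and the block (12.4%), 3 with 12 libraries (3.73%) and 8 with that and the block (11.8%), 0 with library size scaling (1.47%) and 5 with that and the block (6.97%), 2 without a filter (2.27%), 2 at a minimum count of 50 (3.08%), 2 with the length offset (2.5%) and 7 with that and the block (11.3%); 1 was lower in each blocked fit (9.93% to 14.7%). For unstimulated genotypes (0 higher, 0 lower) it was 21 with the block (12.1%), 11 with DESeq2 (5.5%), 21 with DESeq2 and the block (15.5%), 13 with library size scaling and the block (5.44%), 9 with the length offset and the block (8.19%) and 11 with 12 libraries and the block (4.93%); lower were 1 (10.9%), 2 (30.1%) and 1 (4.95%) in the blocked DESeq2, library size and length fits. For LPS-treated genotypes (0 and 0) it was, all blocked, 11 (6.98%), 17 with DESeq2 (11.5%), 7 with library size scaling (4.74%), 7 with the length offset (5.5%) and 6 with 12 libraries (3.66%); lower was 1 with the block (3.16%), with DESeq2 (5.65%) and with library size scaling (16.5%).

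Core medians with library size scaling were 0.43 (0.42 with the block) for LPS in CD18fl/fl and 0.49 (0.50 with the block) for unstimulated genotypes, where the length offset gave 0.46 (0.42 with the block). Regulatory particle medians with that scaling were 0.18 (0.17) and -0.012 (-0.040). Core minus regulatory particle was 1.13, 1.36, 1.58 and 1.71 with the 3 chaperones included, 1.12, 1.31, 1.33 and 1.43 with the length offset, and 0.98 in CD18fl/fl with LPS and 1.50 in cKO with LPS as a difference of medians. With medians, LPS-treated and unstimulated libraries overlapped within each genotype.

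The 14 fold changes of genes named for their adjusted p kept their direction in all 350 refits (range -0.90 to 1.67). The genes were picked from the same libraries that the refits reuse, so a kept direction was likely beforehand. Leaving out single libraries, the number called higher ranged from 0 to 16 for LPS in CD18fl/fl and from 0 to 4 in cKO and stayed at 0 for both genotype comparisons; leaving out a whole replicate number it ranged from 0 to 23, 0 to 10, 0 to 17 and 0 to 3, and with the block from 0 to 22, 1 to 14, 6 to 26 and 0 to 9. Numbers lower ranged from 0 to 3 for LPS in CD18fl/fl and from 0 to 1 elsewhere. With 3 libraries per group and number 3 set apart, small differences of single subunits could not be resolved.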
